A study of Mus musculus with 6 samples.

Results

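The E2F transcription factors and the pocket proteins that hold them in check were followed in thymus RNA of Rag2/pfp KO and wild-type (WT) mice. The set has 10 genes: E2f1, E2f2, E2f3, E2f4, E2f5, E2f6 and E2f8, their dimerisation partner Tfdp1, and the pocket protein genes Rb1 and Rbl1. Every probe annotated with 1 of these symbols was taken, without regard to its signal. This gave 15 of the 25697 probes on the array and covered 9 of the 10 genes. No probe is annotated to E2f8, so its expression was not analysed here. Of the 15 probes, 13 passed the detection filter (a detection p under 0.05 on at least 3 of the 6 arrays), and so all 9 genes were tested, among 9849 tested genes.

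The KO group consists of 3 thymus samples labelled Rag2/pfp KO, and the WT group of 3 thymus samples labelled wild type. The recombinase that assembles antigen receptor genes needs the Rag2 product, and thymocyte development halts at an early stage without it. Pfp is an older symbol of Prf1, the perforin gene. Each sample was hybridised to 1 single-colour Illumina MouseRef-8 version 2 array, and arrays are called KO 1 to 3 and WT 1 to 3 after the replicate numbers in the labels. The labels give no strain, age or sex and do not say whether each sample is a separate animal. The p-values therefore cover only the spread between these 6 arrays, and part of that spread may be technical.

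E2F proteins bind DNA as dimers with a DP protein and switch on genes for the start of DNA replication. Pocket proteins (RB and its relatives) bind E2Fs and silence those genes until cyclin-dependent kinases phosphorylate them in late G1. E2F1, E2F2 and E2F3 are the activators of the family, E2F4 and E2F5 act mostly as repressors with pocket proteins, and E2F6 represses without them, together with polycomb-type proteins. In mice, loss of E2f1 impairs the death of thymocytes under selection, and loss of E2f2 leads to overly responsive T cells and autoimmunity.

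Promoters of the members are shown first, because genes of the family are themselves known targets of E2F proteins. RefSeq promoter windows (GRCm38.p6, 250 bases before to 50 after each start) were found for 7 of the 10 genes, with 10 windows in all, and were searched on both strands for TTTCGCGC, TTTGGCGC and TTTCCCGC. The promoter windows used here include none for E2f4, E2f5 and Rb1, so these genes were not searched. A match stood in 5 of the 10 windows, belonging to E2f2, E2f3, Rbl1 and Tfdp1, against 1.84% of all 32851 windows. Both Tfdp1 windows held the same site. The 100 bases before the start are printed for Rbl1 (chr2:157204535-157204634, minus strand), Tfdp1 (chr8:13338651-13338750, plus strand) and E2f3 (chr13:29986064-29986163, minus strand), 5′ to 3′ on the gene's strand. For E2f2 the match lay in the upstream of its windows, 40 to 47 bases after the start, and 21 bases around it are printed (chr4:136172303-136172323, plus strand). Capitals mark the match.
Rbl1: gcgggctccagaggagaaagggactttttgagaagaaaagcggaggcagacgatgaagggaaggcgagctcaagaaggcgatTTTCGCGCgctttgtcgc
Tfdp1: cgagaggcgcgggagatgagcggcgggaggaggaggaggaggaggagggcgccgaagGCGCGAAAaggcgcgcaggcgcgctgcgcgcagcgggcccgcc
E2f3: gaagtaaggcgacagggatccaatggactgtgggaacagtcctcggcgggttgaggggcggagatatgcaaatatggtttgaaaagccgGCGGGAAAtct
E2f2: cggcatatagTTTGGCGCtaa
The match in Rbl1 lay at positions −18 to −11 and read on the gene's own strand. In Tfdp1 (positions −43 to −36 relative to the start) and E2f3 (positions −11 to −4) it read on the opposite strand. No E2F match stood in the windows of E2f1, E2f6 and E2f8. A shorter motif of late cell cycle genes, TTTGAA, stood in windows of E2f2, E2f3 and E2f8 (3 of the 10 windows, against 17.9% of all). It overlapped none of the E2F matches. A match describes the letters only and does not show binding.

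The arrays had median signals between 172 and 186 units and between 13729 and 13878 detected probes. Rag2 read 6.98, 6.73 and 7.88 in KO, against 9.17, 8.17 and 8.78 in WT (normalized log2 signal), a difference of −1.51 (SE 0.39, adjusted p = 0.0579 in the limma fit). The brighter Prf1 probe differed by −0.64 (adjusted p = 0.0866) and the other by 0.06 (adjusted p = 0.896). No source used here places these probes inside or outside the deleted sequence, so they do not check the labels. The arrays differ in more than genotype. Heart transcripts summed to 12250, 43550 and 102 units of normalized linear signal on KO 1 to 3, against 157, 34400 and 737 units on WT 1 to 3, so that each number 2 array was the highest of its genotype. Fat transcripts, also highest on the number 2 arrays, summed to 32950, 57890 and 3054 units in KO and 3140, 52890 and 9707 units in WT. Xist, the RNA of the inactive X chromosome, read 9.33, 9.09 and 5.05 in KO and 8.89, 4.63 and 9.10 in WT, lowest on KO 3 and WT 2. Members and named genes are given below without number 2 of both genotypes wherever that changes the call.

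E2f2 had by far the widest gap of the family, 2 members were lower in KO at an adjusted p under 0.05, and no member's brightest probe was higher at that threshold. The members past it were E2f1 and E2f2, 2 of 9, where 5.57% of all tested genes were lower and 6.09% were higher. Of the 9 genes, 7 had a negative difference and 2 a positive one. At an unadjusted p under 0.05 the counts were 5 lower and 1 higher, against 14.2% and 14.3% of all genes. The median difference was −0.56 over the members and 0.01 over all tested genes, on the log2 scale. The 3 KO arrays did not overlap the 3 WT arrays for 7 of the 9 members, where 34.2% of all genes showed no overlap. With the replicate number as a block in the fit, 3 members were lower and 1 was higher, against 11.8% and 12.4% of all genes. Without number 2 of both genotypes 1 was lower and 1 was higher, against 14.0% and 15.2% of all genes.

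**Figure D1:**
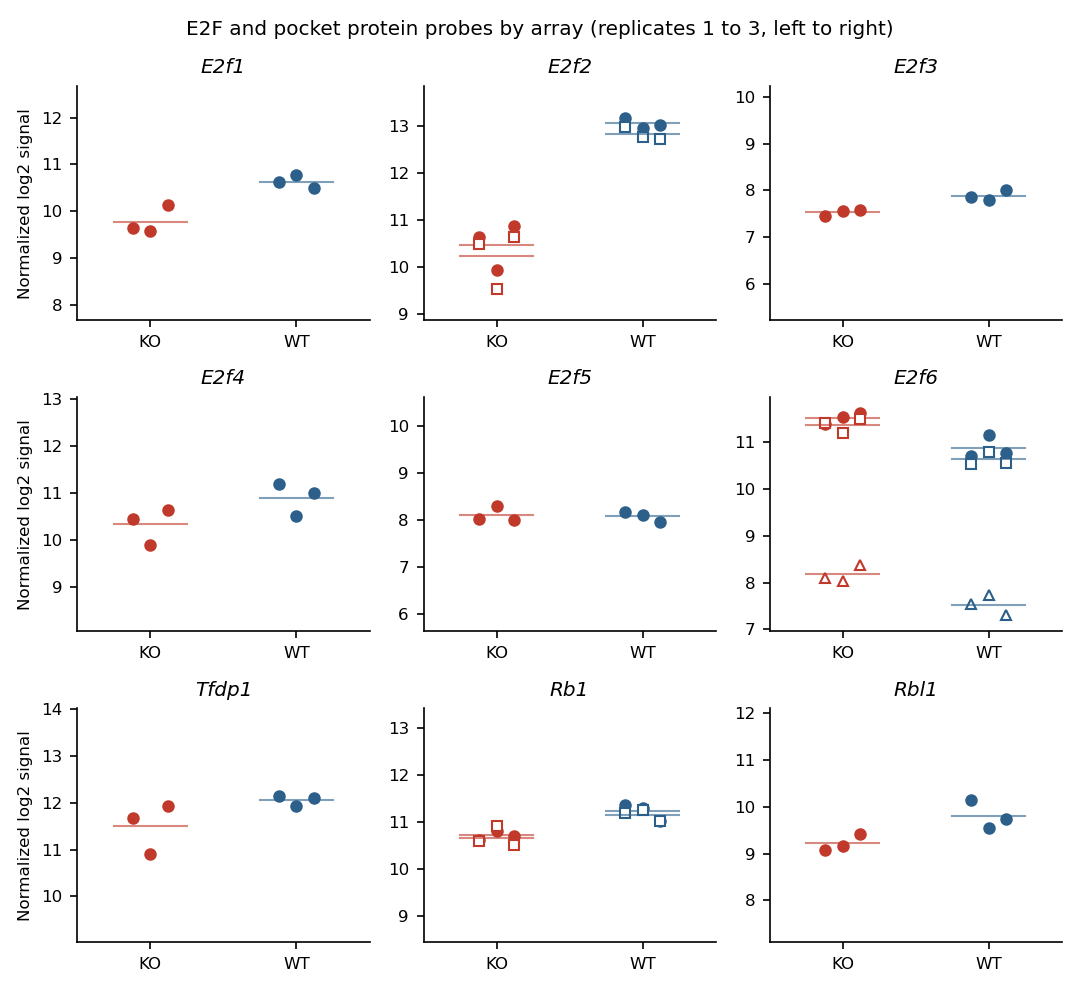
Normalized log2 signal (y axis) of each tested probe on each array, KO in red at the left and WT in blue at the right, with replicates 1 to 3 from left to right and a line at each mean. Filled circles are the brightest probe of a gene, open squares and triangles its further probes, and every y axis spans the same 5 log2 units; E2f2 lies between 9.53 and 10.87 in KO and between 12.74 and 13.18 in WT, while E2f4 and E2f5 overlap.

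E2f2, an activator, read 10.63, 9.93 and 10.87 in KO, against 13.18, 12.97 and 13.03 in WT, on its brightest probe (ILMN_2673776, normalized log2 signal). All 3 KO arrays lay far below all 3 WT arrays, and KO 2 was the lowest. The means were 10.47 ± 0.48 in KO and 13.06 ± 0.11 in WT (SD, n = 3 each), and E2f2 was 5.99-fold lower in KO. The difference of −2.58 (SE 0.26, 95% interval −3.22 to −1.95) passed in the limma fit (adjusted p = 0.00602). A separate probe of the gene, ILMN_2836137, read 10.48, 9.53 and 10.64 in KO and 12.98, 12.78 and 12.74 in WT. It showed the same order of arrays in KO, with KO 2 lowest, and again no overlap. Its difference was −2.61 (SE 0.31, adjusted p = 0.00787). Leaving out any 1 of the 6 arrays kept both probes past the threshold, with differences between −2.82 and −2.27. The third probe, ILMN_1248842, was not well above background on any array and was not tested.

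E2f1, the activator best known for inducing both replication genes and cell death, was also lower in KO, by a smaller amount. It read 9.63, 9.58 and 10.13 in KO, against 10.63, 10.77 and 10.49 in WT (ILMN_1231138). The highest KO array, KO 3, stayed below the lowest WT array, WT 3. The means were 9.78 ± 0.30 in KO and 10.63 ± 0.14 in WT (SD, n = 3 each), a 1.80-fold lower signal. The difference of −0.85 (SE 0.20, 95% interval −1.33 to −0.36) passed narrowly (limma, adjusted p = 0.048). The call ended when any single array but KO 3 was left out (adjusted p up to 0.174), when number 2 of both genotypes was left out (−0.68, adjusted p = 0.0773), with median centring (adjusted p = 0.0757) and with no detection filter (adjusted p = 0.0566). Its difference stayed between −1.02 and −0.74 over the single arrays left out. E2f1 and Rbl1 lie on chromosome 2 as Rag2 does, 242 and 273 tested genes away from it.

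E2f3, the remaining activator, did not pass. It read 7.46, 7.57 and 7.59 in KO and 7.87, 7.80 and 8.0 in WT (ILMN_2743503). The groups did not overlap, but the gap was small. The difference was −0.35 (SE 0.14, 95% interval −0.69 to −0.0034, adjusted p = 0.175 in limma).

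Neither of the repressor-type members passed as reported. E2f4 read 10.46, 9.90 and 10.64 in KO, against 11.20, 10.50 and 11.002 in WT (ILMN_2794796), and KO 3 lay above WT 2, so the groups overlapped. Array number 2 was the lowest of its genotype in both groups. The difference was −0.57 (SE 0.27, 95% interval −1.23 to 0.10, adjusted p = 0.240 in limma). It was −0.35 without KO 2. E2f4 passed with the replicate block (same difference, adjusted p = 0.0484) and with array weights (−0.59, adjusted p = 0.0103). E2f5 read 8.02, 8.30 and 8.01 in KO and 8.18, 8.10 and 7.96 in WT (ILMN_2953596). Its arrays were intermixed, and its difference was 0.03 (SE 0.16, 95% interval −0.35 to 0.42, adjusted p = 0.917), so a change of up to about 0.4 on the log2 scale in either direction lies within the interval. The other E2f5 probe, ILMN_2743953, was not well above background on any array and was not tested.

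E2f6, the member that represses without pocket proteins, was the one E2F with higher signals on every KO array. Its brightest probe (ILMN_2723931) read 11.39, 11.53 and 11.61 in KO, against 10.70, 11.15 and 10.76 in WT. The lowest KO array was above the highest WT array, WT 2. The difference was 0.64 (SE 0.18, 95% interval 0.21 to 1.07), short of the threshold (limma, adjusted p = 0.073). The probe ILMN_2791963 read 11.40, 11.20 and 11.49 in KO and 10.53, 10.79 and 10.56 in WT, and its difference of 0.74 (SE 0.16, 95% interval 0.35 to 1.13) passed (adjusted p = 0.039). The dimmest probe, ILMN_2734152, read 8.11, 8.04 and 8.38 in KO and 7.53, 7.74 and 7.31 in WT, with a difference of 0.65 (SE 0.18, adjusted p = 0.0744; 0.0289 without number 2 of both genotypes). All 3 probes therefore had the same direction and no overlap, and 1 of them passed. The brightest passed with the replicate block (adjusted p = 0.0421), without WT 2 (0.78, adjusted p = 0.0347) and without number 2 of both genotypes (0.77, adjusted p = 0.0215). The call of ILMN_2791963 held without KO 2 or without WT 2 and ended when any other single array was left out (adjusted p up to 0.166) and with median centring (adjusted p = 0.054).

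**Figure D2:**
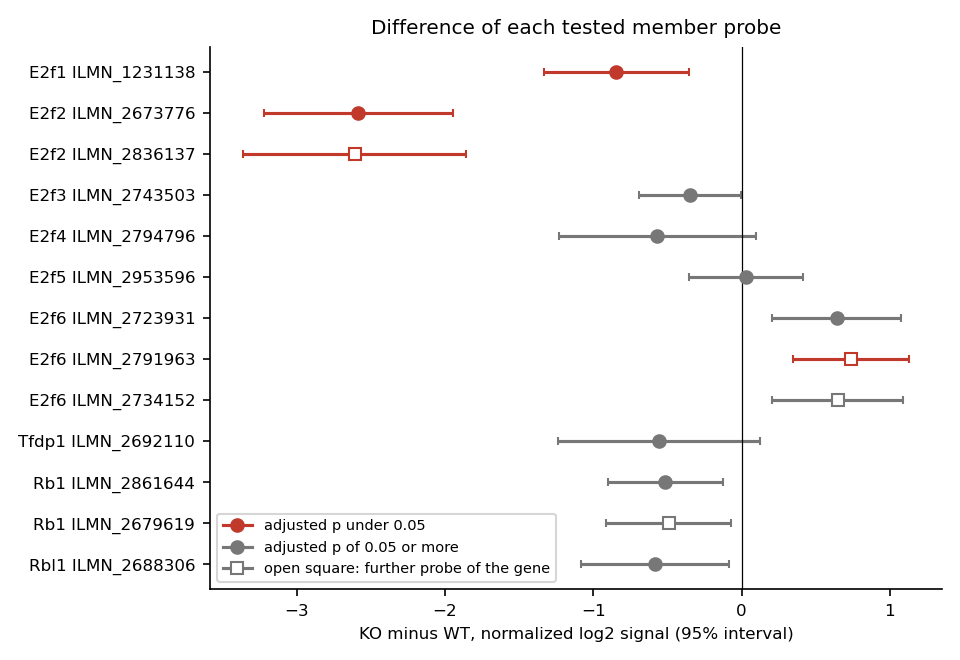
Difference of each of the 13 tested probes (KO minus WT, normalized log2 signal, x axis) with its 95% interval; circles are the brightest probe of a gene, open squares its further probes, and red marks an adjusted p under 0.05. Both E2f2 probes lie near −2.6, the 3 E2f6 probes lie between 0.64 and 0.74, and the intervals of E2f4, E2f5 and Tfdp1 cross 0.

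Tfdp1, the DP subunit through which most E2Fs bind DNA, read 11.67, 10.91 and 11.92 in KO, against 12.13, 11.93 and 12.11 in WT (ILMN_2692110). KO 3 lay just under the lowest WT array, and KO 2 lay well below the rest. The difference was −0.56 (SE 0.28, 95% interval −1.24 to 0.12) and did not pass (limma, adjusted p = 0.258). Without the array KO 2, which is also the lowest KO array for E2f1, E2f2 and E2f4, the Tfdp1 difference was −0.26.

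Both pocket protein genes had lower values on every KO array, and neither passed. Rb1, the retinoblastoma gene, read 10.63, 10.82 and 10.71 in KO, against 11.37, 11.30 and 11.03 in WT, on its brightest probe (ILMN_2861644). The difference was −0.51 (SE 0.16, 95% interval −0.90 to −0.13, adjusted p = 0.0969 in limma). Its other probe, ILMN_2679619, gave a close value, with 10.59, 10.92 and 10.50 in KO and 11.20, 11.26 and 11.04 in WT. That difference was −0.49 (SE 0.17, 95% interval −0.91 to −0.07, adjusted p = 0.128), and it passed without number 2 of both genotypes (−0.57, adjusted p = 0.038). Rbl1, whose product is a pocket protein that pairs mainly with E2F4 and is itself made as cells enter the cycle, read 9.08, 9.16 and 9.41 in KO and 10.13, 9.55 and 9.73 in WT (ILMN_2688306). The KO and WT arrays of Rbl1 came as close as 9.41 and 9.55 without overlap. The difference was −0.59 (SE 0.21, 95% interval −1.09 to −0.09, adjusted p = 0.128). Of the 4 members with an E2F match, E2f2 passed and Rbl1, Tfdp1 and E2f3 did not, while E2f1 passed with no match in its window. A link between a match and a changed signal was not tested.

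**Figure D3:**
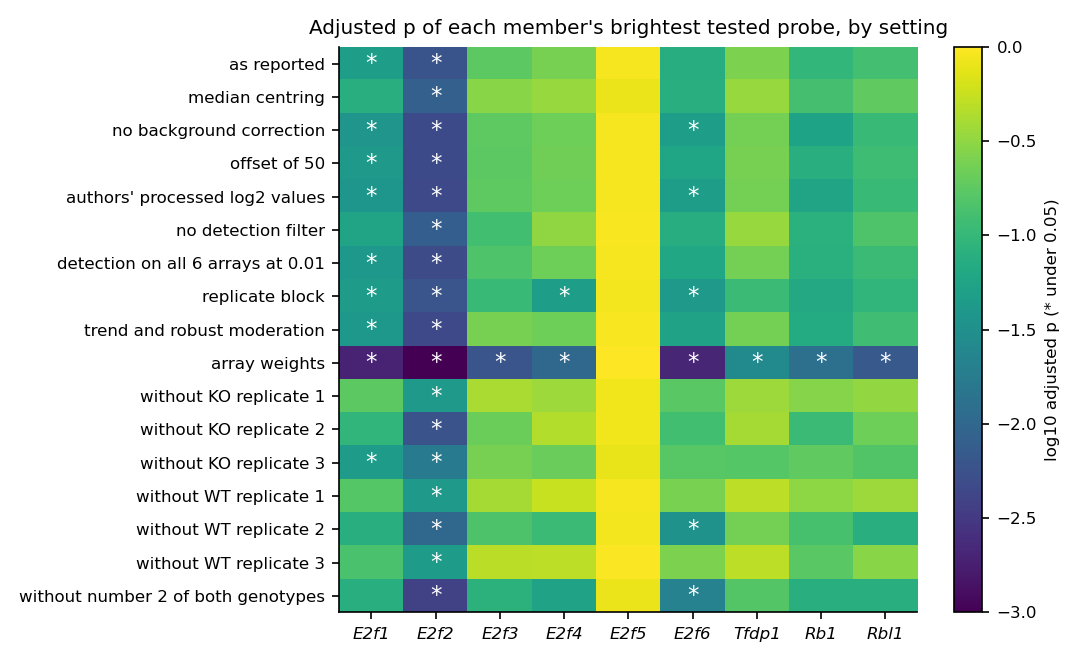
Base-10 logarithm of the adjusted p (colour) of the brightest probe of each of the 9 tested members (columns) under each processing setting (lines of the grid), with an asterisk where the adjusted p is under 0.05. E2f2 has an asterisk under every setting shown, E2f5 under none, and array weights give one to 8 of the 9 members.

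The other family genes did not pass either. Tfdp2, a further DP subunit, had a difference of 0.64 (SE 0.20, adjusted p = 0.0994 in limma), which passed when number 2 of both genotypes was left out (adjusted p = 0.0435). Its sign was opposite to that of Tfdp1. Rbl2, the remaining pocket protein gene, was above background on 2 of the 3 KO arrays and differed by −0.34 (SE 0.23, adjusted p = 0.398). E2f7, an atypical repressor of E2F targets named after its values were seen, was above background on all 3 KO arrays and on 1 of the 3 WT arrays. Its values gave no call (limma, adjusted p = 0.562).

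Several genes that set the activity of pocket proteins fell, Cdkn2d and Ccnd3 furthest. In a list of 17 G1 cyclins, cyclin-dependent kinases and their inhibitors, 15 were tested. Of these, 7 were lower (46.7%, against 5.57% of all genes) and 0 were higher (6.09% of all genes). At an unadjusted p under 0.05, 7 were lower and 2 higher, against 14.2% and 14.3% of all genes. Ccnd3, the D-type cyclin that early thymocytes depend on, averaged 12.28 ± 0.13 in KO and 13.98 ± 0.12 in WT (SD, n = 3 each), a difference of −1.70 (SE 0.15, adjusted p = 0.00445 in limma). Cdkn2d, an inhibitor of the D-type cyclin kinases, averaged 8.16 ± 0.33 in KO and 10.23 ± 0.15 in WT (SD, n = 3 each) and fell by 2.08 (SE 0.21, adjusted p = 0.00601). Both stayed past the threshold whichever array was left out. The genes that fell thus include a kinase activator and a kinase inhibitor. Ccne1 and Ccne2, the E-type cyclins and classical E2F targets, differed by −1.42 (SE 0.29, adjusted p = 0.0332) and −1.34 (SE 0.27, adjusted p = 0.0317), and Ccne1 was above background on 2 of the 3 KO arrays. Ccne1 passed in 3 and Ccne2 in 1 of the 6 fits with an array left out. Cdk2, Skp2 and Cdkn1b, named here after their values were seen, completed the 7. The 2 genes higher at an unadjusted p under 0.05 were Cdkn1a and Cdk6, also named after their values were seen. Cdkn1a differed by 1.18 (SE 0.29, adjusted p = 0.0535 in limma) and Cdk6 by 1.01 (SE 0.42, adjusted p = 0.178). Calls of these genes named afterwards are not given for the other fits. Fewer genes of the list were lower without KO 1, WT 1 or WT 3 (2 each) and without KO 3 (4). Ccnd2, another D-type cyclin, averaged 12.17 ± 0.08 in KO and 11.07 ± 1.00 in WT (SD, n = 3 each), a difference of 1.10 (SE 0.48) that did not pass (adjusted p = 0.197) but did without number 2 of both genotypes (adjusted p = 0.0418). Cdkn2c, a further inhibitor of those kinases, differed by −0.63 (SE 0.34, adjusted p = 0.288). The list's median difference was −0.63. With the replicate block 7 of its genes were lower and 1 higher, against 11.8% and 12.4% of all genes. Without number 2 of both genotypes 8 were lower and 3 higher, against 14.0% and 15.2% of all genes.

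Every tested target gene of the E2Fs for the G1/S step and DNA replication had a negative difference. Of 39 such genes, 33 had a probe and 25 were tested. By their brightest probe, Orc1, Pola1, Prim1, Slbp, Brca1, Ccna2 and Hells were not well above background on any array and were not tested. Pcna, above background on 2 of the 3 WT arrays and no KO array, was not tested either. Among the 25, 5 were lower (20.0%, against 5.57% of all genes) and 0 were higher. At an unadjusted p under 0.05 there were 17 lower (14.2% of all genes were) and 0 higher. The median difference over the 25 was −0.77, against 0.01 over all tested genes. With the replicate block 11 were lower (11.8% of all genes), and without number 2 of both genotypes 10 were lower (14.0% of all genes). Rrm2, the regulated subunit of ribonucleotide reductase, read 8.92, 8.16 and 9.30 in KO, against 10.83, 10.88 and 10.67 in WT, and had the furthest fall among the 25 (−2.0, SE 0.30, adjusted p = 0.0145 in limma). Cdc45, part of the replicative helicase, read 9.22, 8.92 and 9.43 in KO and 10.67, 10.62 and 10.54 in WT (−1.42, SE 0.18, adjusted p = 0.00912). In both genes KO 2 was lowest, as in E2f2, and the groups were well apart. Ezh2, the polycomb methyltransferase, fell by 1.26 (SE 0.26, adjusted p = 0.0314) and Mcm10, a replication initiation factor, by 1.07 (SE 0.25, adjusted p = 0.0452). The fifth gene was Cdc6, which loads the helicase (−1.05, adjusted p = 0.043, named after its value was seen). None of the 5 was past the threshold in all 6 fits with an array left out, and the count of lower targets was 0 without KO 1, WT 1 or WT 3, 3 without KO 2 or WT 2 and 5 without KO 3. The brightest targets that did not pass were the helicase subunits Mcm4 (−0.35, SE 0.21, adjusted p = 0.326) and Mcm5 (−0.80, SE 0.27, adjusted p = 0.115). The E2F motif letters stood in 37.8% of the 37 promoter windows of the target list, against 1.84% of all windows. Matches included windows of Ezh2, Cdc6 and Mcm5 but none of Rrm2, Cdc45 or Mcm10. The windows cover 30 of the 39 genes, so a gene without a match may lack a window.

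**Figure D4:**
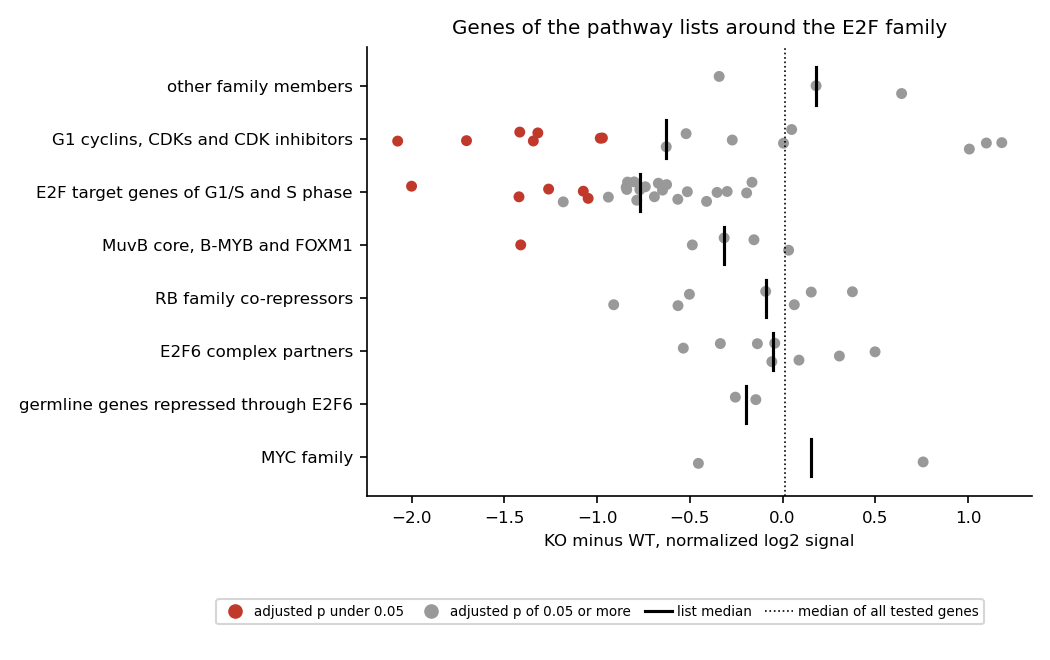
Difference of each tested gene (KO minus WT, normalized log2 signal, x axis) in 8 gene lists around the E2F family, with red for an adjusted p under 0.05, a bar at each list's median and a dotted line at the median of all tested genes. The E2F targets lie wholly left of 0 with a median of −0.77, and the partners of E2F6 lie on both sides with a median of −0.05.

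Among genes that work with the pocket proteins later in the cycle, 1 of 5 tested genes of the MuvB, B-MYB and FOXM1 list was lower. That share was 20.0%, against 5.57% of all genes. The count was also 1 of 5 at an unadjusted p under 0.05 (14.2% of all genes). It stayed 1 of 5 with the replicate block (11.8% of all genes) and without number 2 of both genotypes (14.0%). Foxm1, the factor that drives genes of mitosis, averaged 8.37 ± 0.46 in KO and 9.78 ± 0.18 in WT (SD, n = 3 each), a difference of −1.41 (SE 0.26, adjusted p = 0.0249 in limma). It passed in 3 of the 6 fits with an array left out. Mybl2, the B-MYB gene, differed by −0.49 (SE 0.27, adjusted p = 0.306), and Lin54, the DNA-binding subunit of MuvB, by −0.32 (SE 0.18, adjusted p = 0.323). The list's median was −0.32.

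The partners in repression gave no call as reported. Of 7 tested co-repressors of RB family proteins, 0 passed in either direction, and their median difference was −0.09. With the replicate block 3 of these 7 were lower (11.8% of all genes), among them Sin3a, a histone deacetylase scaffold (−0.50, SE 0.18, adjusted p = 0.137 without and 0.0445 with the block, and 0.0369 without number 2 of both genotypes). Smarca2, a chromatin remodelling ATPase, differed by 0.06 (SE 0.16, adjusted p = 0.827). At an unadjusted p under 0.05, 3 of the 7 were lower (14.2% of all genes). Without number 2 of both genotypes 2 of them were lower and 1 was higher (14.0% and 15.2% of all genes). Of 8 tested partners of the E2F6 complex, 0 passed and 0 had an unadjusted p under 0.05, with a median of −0.05. Without number 2 of both genotypes 1 partner was lower (14.0% of all genes). Max, the dimer partner found in that complex, differed by −0.04 (SE 0.20, adjusted p = 0.909), and Epc1, a polycomb-linked scaffold, by −0.54 (SE 0.27, adjusted p = 0.262; 0.0219 without number 2 of both genotypes). Of 5 germline genes that E2F6 is known to silence, only 2 were tested, and they gave no call. Stag3 differed by −0.14 (SE 0.32, adjusted p = 0.809 in limma). Tuba3b, above background on 1 of the 3 KO arrays, had an adjusted p of 0.495. Tuba3a, above background on 1 of the 3 WT arrays and no KO array, was not tested. Smc1b and Slc25a31 were not well above background on any array. Myc, which induces E2f1, E2f2 and E2f3 in other cells, had a difference of 0.76 (SE 0.28, adjusted p = 0.14), which passed when number 2 of both genotypes was left out (adjusted p = 0.00873). Mycl differed by −0.45 (SE 0.27, adjusted p = 0.329).

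Cell type markers also differed between the genotypes, with some lists lower and others higher in KO. Markers of double-positive thymocytes, the most numerous cells of a normal thymus, summed to 686, 490 and 1073 units on KO 1 to 3, against 47480, 37050 and 43650 units on WT 1 to 3. All 4 tested markers of that list (Cd4, Cd8b1, Cd28 and Slamf1) were lower, against 5.57% of all genes. Markers of double-negative thymocytes, the preceding stage, summed to 11240, 8794 and 12810 units in KO and 1810, 2158 and 1937 units in WT. Of these markers, 5 of 5 tested were higher, against 6.09% of all genes. The summed signal of pan-T genes overlapped between genotypes (68380 to 119200 units in KO, 98570 to 130800 units in WT), with 0 of 5 tested past the threshold (1 higher and 1 lower at an unadjusted p under 0.05, and likewise with the replicate block and without number 2 of both genotypes). The arrays of the genotypes did not overlap for Cd3g, Thy1 and Bcl11b. The labelled tissue thus shows its T lineage genes in both genotypes. Cortical epithelium markers were higher in 5 of 5 tested (7130 to 10920 units in KO, 1126 to 2696 units in WT). B cell markers were lower in 3 of 4 tested (1026 to 1644 units in KO, 4152 to 5363 units in WT). Medullary epithelium markers were lower in 2 of 6 tested (1904 to 5211 units in KO, 10780 to 28330 units in WT), and macrophage markers in 1 of 4 (5693 to 6453 units in KO, 7121 to 10490 units in WT). With the replicate block 3 medullary markers were lower (11.8% of all genes). Without number 2 of both genotypes 4 medullary markers and 3 of 4 macrophage markers were lower (14.0% of all genes). Cd8a was not well above background on any array, the B cell markers Cd79a, Ms4a1 and Fcmr and the medullary marker Tnfrsf11a were not on any KO array, and Cd4 was above background on 1 of the 3 KO arrays. The cortical epithelium marker Foxn1 was not well above background on any WT array. E2f2 was lower, as were called genes of the double-positive, B cell, medullary epithelium and macrophage lists. E2f6 had higher signals in KO, as had called genes of the double-negative and cortical epithelium lists. With only KO and WT to compare, a shared direction does not assign a member to a cell type. In whole-thymus RNA, fewer cells of a type and less RNA per cell cannot be told apart, and the part of cell composition in the differences of the E2F members was not tested.

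**Figure D5:**
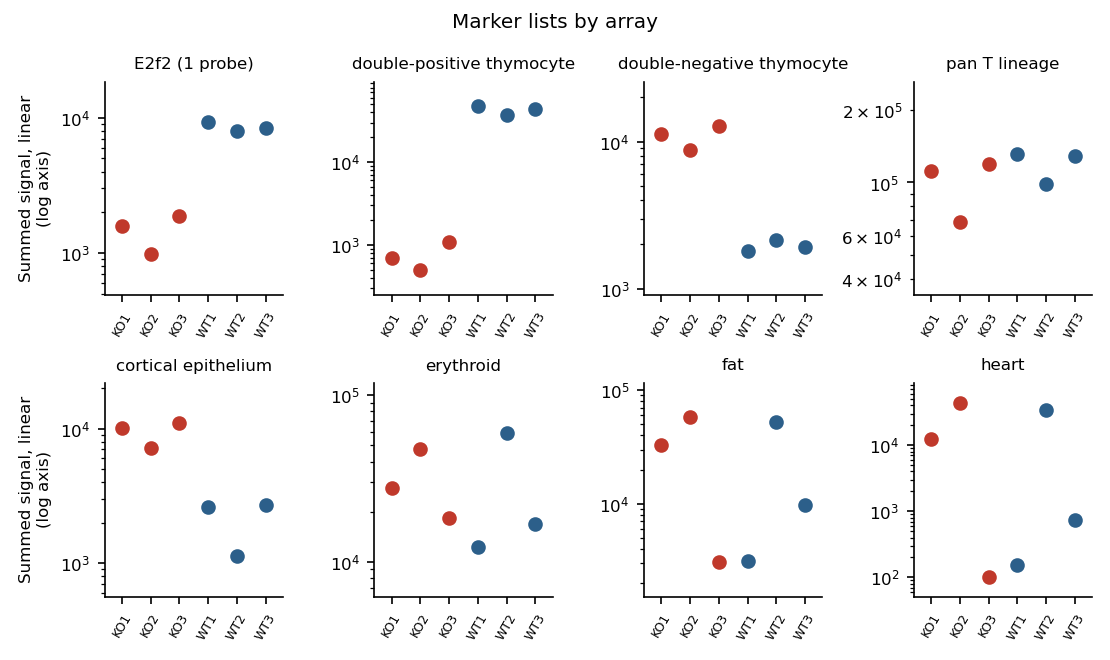
Linear signal of the brightest E2f2 probe and summed linear signal of the genes of 7 marker lists that have a probe (normalized signal, y axes, log scale) on each array, KO 1 to 3 in red at the left and WT 1 to 3 in blue at the right. The E2f2 and double-positive panels separate KO (low) from WT (high), the double-negative and cortical epithelium panels separate them the other way, and the fat and heart panels overlap, with each number 2 array the highest of its genotype.

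Markers of red cell precursors, which also use E2F2 and pocket proteins, summed to 27930, 47760 and 18210 units in KO, against 12340, 59300 and 16820 units in WT. Most of each sum came from 1 gene, Hba-a1, so the sums say little about the other markers. The markers with a probe that were not tested were Gata1 and Klf1. Gata1 was above background on 2 of the 3 KO arrays and Klf1 on 1, and neither was on any WT array. The 2 number 2 arrays had the highest sums, the sums of the groups overlapped, and 0 of 4 tested markers passed, also at an unadjusted p under 0.05. The fibroblast, endothelium, fat and heart lists had 0 genes past the threshold as well, and 0 at an unadjusted p under 0.05. With the replicate block 2 fibroblast genes and 1 endothelium gene were higher (12.4% of all genes). Without number 2 of both genotypes 2 fibroblast genes were higher (15.2% of all genes). In the list of neighbouring organs (parathyroid, thyroid and airway), 1 of 2 tested genes was lower, against 5.57% of all genes. This was Tg, of the thyroid (−1.29, SE 0.22, adjusted p = 0.0191 in limma), named after its value was seen. Tg was not well above background on any KO array. The list summed to 137.5, 76.82 and 1524 units in KO, against 1900, 128.5 and 10050 units in WT.

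The genes whose pattern over the 6 arrays was most like that of a called member were found from profiles centred on their mean, by the root mean square difference, among 9840 other genes. For E2f2 these were Ccndbp1 (0.07 log2 units, difference −2.48), Nyap1 (0.08, difference −2.52) and Endou (0.08, difference −2.64), each of which passed (adjusted p = 0.00602, 0.00787 and 0.00651 in limma). Ccndbp1 lies 79 tested genes from Rag2 on chromosome 2. For E2f1 the nearest were Them6 (0.08, difference −0.79, adjusted p = 0.044), Fuom (0.09, difference −0.74, adjusted p = 0.0744) and Ttf2 (0.09, difference −0.79, adjusted p = 0.0359). The choice used the same 6 arrays, so a like difference and adjusted p follow from it and are no separate result. None of these 6 genes is in the lists above.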

How the data were processed

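Per the file headers, the authors deposited a linear probe intensity for each array, not normalized between arrays, and beside it a detection p-value. A second deposited table holds the authors' log2 values, which lay within 0.005 of quantile normalized log2 intensities. Each of its columns had a median of 7.48. It is not centred on 0. The submitters' processing notes name GenomeStudio 2011.1 and give no order of steps here.

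Background correction from the detection p-values, quantile normalization and the log2 step were done by neqc (offset 16) of limma 3.58.1 in R 4.3.3. The tested probes, 14097 in all, had a detection p under 0.05 on 3 or more of the 6 arrays. KO and WT were compared with lmFit and eBayes, and p-values were adjusted by Benjamini-Hochberg over all 14097 probes, with a threshold of 0.05. The brightest tested probe, by its mean over all arrays, stands for a gene. Differences are KO minus WT. Tables used pandas 2.3.3 and numpy 2.4.6 in Python 3.11.15, and figures matplotlib 3.10.9. The fit was tested on simulated data with independent noise and planted changes larger than the difference of any member but E2f2. That test does not bear on the smaller differences. An exact test of 3 arrays against 3 cannot give a two-sided p under 0.1, so none was used. The number of arrays limits the precision.

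Members and lists were chosen with earlier results of these data known. Named were all members with every probe, Rag2, Prf1, in each pathway list at most 4 called genes, those that changed most, and at most 2 uncalled ones, the brightest, and the 3 genes nearest in profile to each called member. Promoter windows are RefSeq's. Deviations from the group means correlated at 0.10, 0.75 and 0.56 between arrays of the same replicate number, and at 0.73 between KO 3 and WT 1 and 0.11 between KO 1 and WT 3, each above the same-numbered value of that KO array. The numbers come from the labels, which do not say what they mark, and were treated as pairs for the alternative with the replicate number as a block.

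The other alternatives were an offset of 50, median centring, the authors' log2 values, no background correction, detection at 0.01 on all 6 arrays, no detection filter, array weights (estimated gene by gene, because the REML estimate did not converge), trend and robust moderation, the probe with the largest spread or the mean of the probes of a gene, and leaving out each array or number 2 of both genotypes. Leave-one-out fits kept the normalization and the tested probes.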

Additional observations from a re-analysis of the deposited data

How the results depend on the processing

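E2f2 passed under every alternative run; the other calls of the family did not all hold, and the cause was not tested. The count of members past the threshold (2 as reported) was 1 with median centring, 1 with no detection filter, 4 with the replicate block, 8 with array weights and between 1 and 2 with an array left out. Members lower in KO (2) numbered 1 with median centring, 1 with no detection filter, 1 without number 2 of both genotypes, 7 with array weights and 1 to 2 with an array left out. Over all genes, 549 of 9849 were lower as reported and 412 with median centring. With no detection filter 453 of 16593 were lower, and with array weights 2622 of 9849. Members higher (0; 1 at an unadjusted p under 0.05) numbered 1, E2f6, with no background correction, the authors' log2 values, the replicate block, array weights, the probe with the largest spread, and without number 2 of both genotypes, and 0 to 1 with an array left out. The E2f5 difference turned to −0.0019 with array weights, −0.0494 without number 2 of both genotypes, and ranged from −0.0621 to 0.0818 with an array left out. E2F targets lower in KO (5) numbered 3 with median centring, no detection filter or the probe with the largest spread, 11 with the replicate block, 22 with array weights, 10 without number 2 of both genotypes and 0 to 5 with an array left out (0 without KO 1, WT 1 or WT 3); the list's median stayed between −0.94 and −0.50. G1 regulators lower in KO (7) numbered 2 to 6 with an array left out (2 without KO 1, WT 1 or WT 3). Over all genes, 1149 were called as reported, 2386 with the replicate block, 5081 of 9849 with array weights (a share so large that its calls may be too liberal), 2878 without number 2 of both genotypes, and with an array left out 158 (WT 3), 161 (KO 1), 180 (WT 1), 518 (KO 3), 1072 (KO 2) or 1506 (WT 2). The median of other family genes moved to 0.64 with detection on all 6 arrays, where fewer genes are tested. The number of arrays limits every value: the median SE over all genes was 0.23.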
